A study of Mus musculus with 16 samples.

Results

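The data describe what changed in splenic type 2 conventional dendritic cells (cDC2s) of mice that lose Trim33 in CD11c-expressing cells. The cells came from Trim33 fl/fl mice without Cre (WT) and from mice that also carry Itgax-Cre (Trim33 fl/fl Itgax-Cre, cKO), both on the C57BL/6 background and 6 to 8 weeks old, so both groups carry the floxed allele and only the cKO group carries Cre. The labels give the genotype of the cKO cells as Trim33-/-. Spleens were digested with collagenase, light-density cells were depleted of non-DC lineages with antibodies and beads, and cDC2s were sorted as CD11c+ SiglecH- MHC II+ CD24- CD172a+ cells. There were 3 WT and 3 cKO cDC2 libraries of total RNA, which the study describes as biological repeats, each from the pooled cells of several untreated animals and with more animals in a cKO pool than in a WT pool. The same table holds 2 WT and 2 cKO libraries of cDC1s, which share the spread of the fit and serve for comparison. Of the 17721 genes in that table, the 11405 with a mean of at least 1 TPM (transcripts per 1 M transcripts) over the 6 cDC2 libraries were kept, whatever their change, and 11375 of these have a RefSeq symbol. The comparison asks which genes depend on TRIM33 in differentiated cDC2s. Cre is driven by Itgax, the gene of CD11c, so deletion follows CD11c expression, and CD11c is also found on some macrophages, NK cells and B cells.

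cDC2s take up antigen in the bridging channel and marginal zone of the spleen and present it on MHC class II to CD4 T cells. They depend on the transcription factors IRF4, PU.1 and RELB, and their ESAM+ fraction also needs Notch2 signals. On activation, DCs raise CCR7 and move to the T cell zone. TRIM33 is a nuclear ubiquitin ligase of the TIF1 family that reads histone marks, acts with and against SMAD4 in TGF-beta signalling, and has been linked to transcription elongation and to the silencing of genes bound by PU.1.

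The libraries were estimated to hold 18.43 to 20.14 M reads, at which 3 reads on a transcript of 2000 bases correspond to 0.137 to 0.166 TPM. Within each group, pairs of cDC2 libraries had a Pearson r of 0.981 to 0.993 over all tested genes (log2 of TPM + 1), which are not independent of each other. All 6 libraries expressed genes that mark cDC2s. Sirpa, the gene of CD172a, lay between 444 and 582 TPM, Cd209a between 340 and 432 TPM, and H2-Ab1, a class II chain, between 12335 and 15191 TPM. CD172a and MHC II were also used in the sort, so Sirpa and H2-Ab1 are no separate check of identity. Other cDC2 markers differed between the groups, Cd4, Esam and Irf4 being lower and Itgam higher in cKO libraries (below). Clec4a4 (log2 fold change −0.77), Zbtb46 (−0.47) and Flt3 (−0.45) were lower without passing the test. Some markers of other cells were low, with Cd3e at 1.11 TPM or less, Ncr1 at 0.66 or less and Siglech at 3.97 to 9.6. Xcr1 was at 1.71 to 6.6 and Clec9a at 6.7 to 18.5 TPM. Others were not low, with Klrd1 of the NK cell list at 233 to 388 TPM and the erythroid gene Hbb-bs at 425 to 3712 TPM. The macrophage genes C1qa and Adgre1 lay at 61.5 to 152 and 147 to 187 TPM. No marker of the lists was at 0 in all 6 libraries. WT library 2 stood apart in 2 ways. Its Y-linked transcript Eif2s3y was at 0.11 TPM, against 44.1 to 60.1 TPM in the other 5 libraries, and its summed erythroid markers reached 10740 TPM against 1273 to 2302 TPM. WT cDC1 library 1 in the same fit was alike, with Eif2s3y at 0.27 TPM and the erythroid gene Hbb-bs at 1022 TPM, against 28.9 and 126 TPM in WT cDC1 library 2. Y-linked transcripts were thus uneven between the genotypes in both subsets, and their part in the results was not tested. WT library 1 stood apart in immediate-early genes, which cells switch on within minutes of stimulation. Its 25 tested genes of that list lay at a median of 0.86 log2 units above their WT means, against −0.48 and −0.34 in WT libraries 2 and 3.

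Trim33 fell in cKO cDC2s but was still detected in every library. It was at 20.6, 18.2 and 17.2 TPM in WT and at 7.93, 7.13 and 8.07 TPM in the cKO libraries. The groups did not overlap, and the cKO mean was 41.3% of the WT mean, a log2 fold change of −1.17 (limma standard error, SE, 0.11, adjusted p 0.000127). A gene-level value counts reads of all exons, so it does not separate transcripts with and without the floxed part. Among the 9 tested genes of the TIF1 family and its cofactors, Trim33 was the only one that passed the test. Spi1, which encodes PU.1, was at 677, 632 and 814 TPM in WT and at 822, 696 and 785 TPM in cKO libraries, so the groups overlapped. Cdk9, an elongation kinase, was at 105, 124 and 147 TPM in WT and 139, 124 and 142 TPM in cKO libraries, again overlapping. In the TGF-beta, activin and BMP pathway, 2 of 27 tested genes rose and 1 fell (3.66% and 3.69% of all genes did). The median log2 fold change was −0.04 beside −0.03 over all genes tested. Tgfbi, a secreted matrix protein that TGF-beta induces, was at 208, 190 and 281 TPM in WT and 546, 394 and 530 TPM in cKO libraries (log2 fold change 1.12, SE 0.16, adjusted p 0.00143). Eng, a TGF-beta co-receptor, went from 2.63 to 3.11 TPM in WT libraries to 4.7 to 7.22 TPM in cKO libraries (log2 fold change 0.84). The third gene, Bmp2, is a ligand of the family and is described among the falls. The call of Eng was lost (adjusted p up to 0.0202) when WT library 1 or 2 or cKO library 1 or 3 was left out of the fit, and without cKO library 3 the list kept 1 call.

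A gene was called when its adjusted p from limma was at most 0.01 and its log2 fold change at least 0.5 in size. By this rule 838 of 11405 genes (7.35%) changed in cKO cDC2s, of which 417 rose (3.66%) and 421 fell (3.69%). The typical called gene moved modestly, with a median size of 0.86 log2 units. A change of at least 1 log2 unit was reached by 133 rises and 167 falls, and one of at least 2 by 32 rises and 10 falls, so the very large changes were mostly rises. Of the called genes that rose, 25 had a WT mean under 1 TPM, and 46 that fell had a cKO mean under 1 TPM. The 3 WT and the 3 cKO values did not overlap in any of the 838 called genes, nor in 35.7% of all genes tested. Lack of overlap in a called gene is thus no further support for its change, here or below. An unadjusted p under 0.05 was reached by 3923 genes, 34.4% of those tested, which is the share to hold list counts of that kind against. Counts of called genes in a list are likewise to be held against the 3.66% that rose and the 3.69% that fell. Leaving out 1 of the 10 cDC libraries at a time gave 326 to 938 calls, the fewest without cKO cDC2 library 3 and the most without WT cDC2 library 3 (553 without WT cDC2 library 1 and 527 without WT cDC2 library 2, which stood apart), and 304 genes (147 higher, 157 lower) were called in all 10 of these fits. In sorted bulk samples, a lower share of cells that express a gene and less RNA per cell cannot be told apart.

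**Figure D1:**
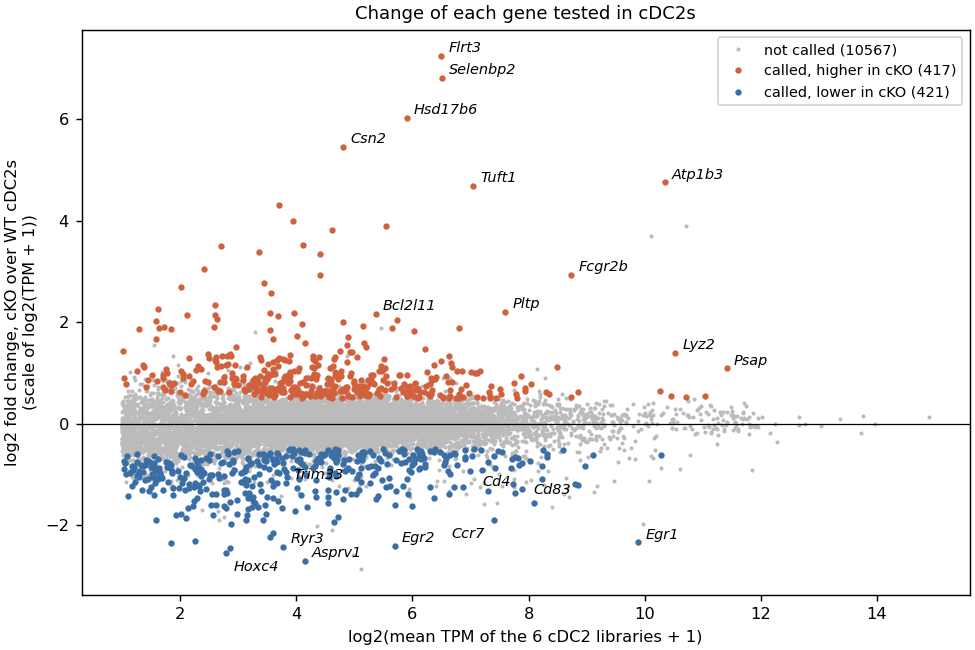
Log2 fold change of cKO over WT cDC2s (vertical axis) against the mean TPM of the 6 cDC2 libraries (horizontal axis, log2 scale), 1 point per gene tested. The 417 rises (red) reach 7.25 log2 units at Flrt3, the 421 falls (blue) end at −2.71 for Asprv1, and grey points are genes that were not called.

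The largest rises were of genes that WT cDC2s hardly transcribed. Flrt3, an adhesion and repulsion receptor of neurons and embryonic tissue, was at 0.32, 0.21 and 0.03 TPM in WT and at 176, 189 and 171 TPM in the cKO libraries (log2 fold change 7.25, SE 0.12, adjusted p 3.05e-10). Selenbp2, a selenium-binding protein, was at 0.68, 1.37 and 0 TPM in WT and at 193, 185 and 159 TPM in cKO libraries (6.82, SE 0.26). Hsd17b6, a steroid dehydrogenase, was at 3.91, 0.16 and 0 TPM in WT and at 108, 128 and 112 TPM in cKO libraries, with only WT library 1 above 1 TPM (6.03, SE 0.47). In each of these the cKO libraries lay close together and far above every WT library. Csn2, the milk protein beta-casein, was at 0.19, 0.58 and 0 TPM in WT and at 47.9, 58.8 and 53.9 TPM in cKO libraries (5.46, SE 0.19). Slc9c1, a sperm-specific member of the sodium-proton exchanger family, was at 0.17, 0.66 and 0 TPM in WT and at 25.2, 24.1 and 21.9 TPM in cKO libraries (4.31, SE 0.17). The transcripts of a neural receptor, a milk protein and a sperm exchanger thus shared a WT level near the counting limit. For such genes the size of the fold change depends on the pseudocount of 1 TPM, and the TPM values are the better guide. A further pair with WT values under 0.5 TPM in every library, Nr3c2 and Cgn, was also called. Nr3c2, the mineralocorticoid receptor, was at 0.27, 0.13 and 0.03 TPM in WT and at 10.2, 7.69 and 7.66 TPM in cKO libraries. Cgn, a protein of epithelial tight junctions, was at 0.15, 0.02 and 0.09 TPM in WT and at 6.88, 5.77 and 5.48 TPM in cKO libraries. All calls in this paragraph held in each of the 10 fits without 1 library. Selenbp2 has a close copy, Selenbp1, and reads may be shared between them. Selenbp1 was at 3.81 to 5.05 TPM in WT and 20.7 to 29.9 TPM in cKO libraries (2.18), a gene looked up after the values were seen.

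Other large rises mostly started from a measurable WT level, Apcdd1 being an exception with a WT mean of 0.877 TPM. Atp1b3, a beta subunit of the sodium-potassium pump, was at 77.9, 117 and 84.3 TPM in WT and at 2611, 2505 and 2389 TPM in cKO libraries, which brought it from a moderate to a very high level (log2 fold change 4.76, SE 0.14, adjusted p 3.07e-08). Tuft1, an acidic protein first found in enamel, was at 8.94, 9.82 and 8 TPM in WT and at 261, 263 and 240 TPM in cKO libraries (4.69, SE 0.09). Neither gene had a WT library near any cKO library. Apcdd1, a membrane inhibitor of WNT and BMP signals, was at 0.95, 1.48 and 0.2 TPM in WT and at 25.4, 25.8 and 32.4 TPM in cKO libraries (4.0, SE 0.22). Epb41l4b, a band 4.1 family protein, was at 5.21, 1.61 and 1.08 TPM in WT and at 42.7, 43.5 and 46.7 TPM in cKO libraries (3.81, SE 0.33). Gstt1, a glutathione transferase, was at 0.63, 3.72 and 1.72 TPM in WT and at 24.8, 33.7 and 34 TPM in cKO libraries (3.52, SE 0.38). For these genes no value of 1 group reached the other, as held for every called gene. Pltp, a phospholipid transfer protein of lipoproteins and macrophages, was at 47.5, 78.7 and 81.3 TPM in WT and at 379, 267 and 304 TPM in cKO libraries (2.2, SE 0.21, adjusted p 0.000164).

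**Figure D2:**
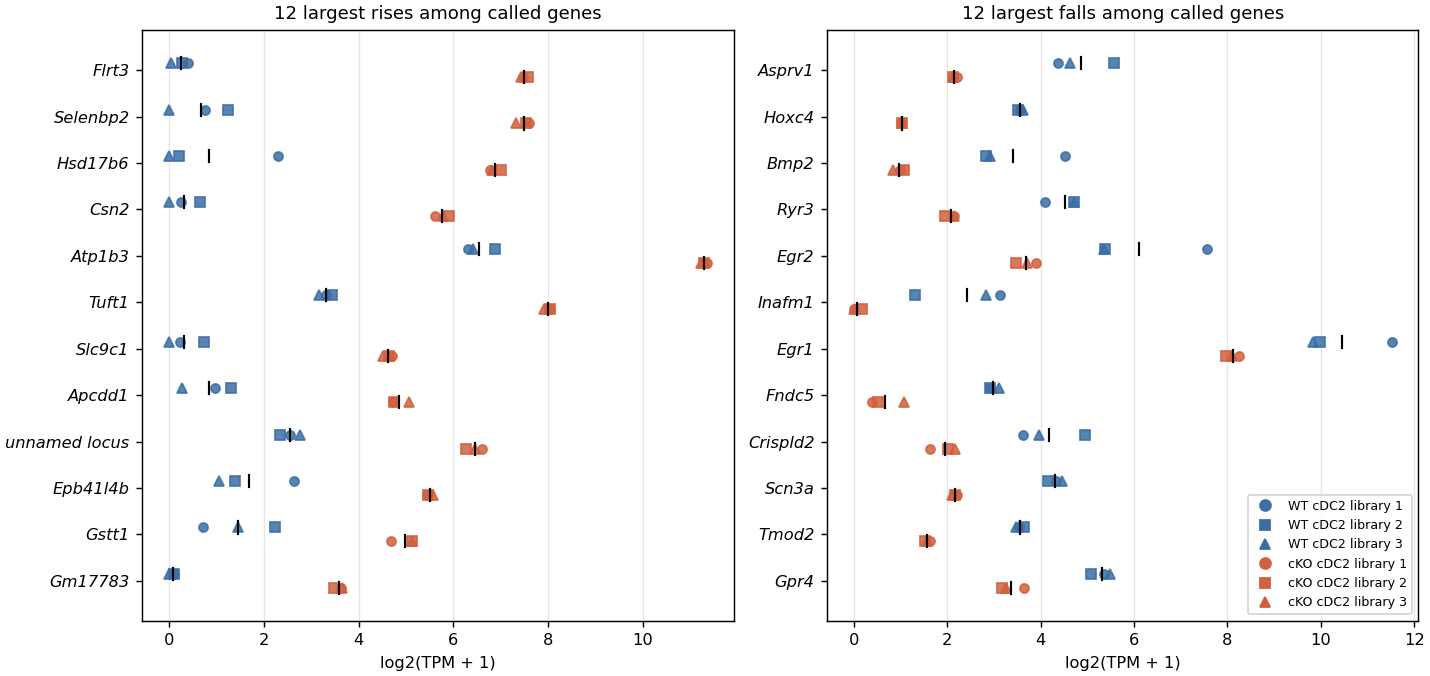
Level of the 12 genes with the largest rises (left) and the 12 with the largest falls (right) in each cDC2 library, as log2(TPM + 1), with WT libraries in blue, cKO libraries in red, a symbol for each replicate number and a black bar at each group mean. No WT value overlaps a cKO value of the same gene, as held for every called gene. WT library 1 lies well above the other WT libraries for Bmp2, Egr2 and Egr1.

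The 250 bases before the annotated start of 4 strongly raised genes are shown (RefSeq GRCm38.p6, 5′ to 3′ on the gene's strand), because the genes that were near 0 in WT cells and Atp1b3, which was not, differ in base composition there. Capitals mark GAGGAA or its reverse complement TTCCTC, a purine-rich core that PU.1 and other ETS factors can bind. The windows are chr2:140671477-140671726 (minus strand) for Flrt3, chr3:94693323-94693572 (plus strand) for Selenbp2, chr16:45535016-45535265 (plus strand) for Slc9c1 and chr9:96364432-96364681 (minus strand) for Atp1b3.
Flrt3: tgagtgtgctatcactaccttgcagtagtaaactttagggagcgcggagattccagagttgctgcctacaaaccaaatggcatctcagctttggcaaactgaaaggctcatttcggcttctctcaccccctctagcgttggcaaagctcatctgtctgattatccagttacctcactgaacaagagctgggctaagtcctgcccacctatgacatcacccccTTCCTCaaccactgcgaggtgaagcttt
Selenbp2: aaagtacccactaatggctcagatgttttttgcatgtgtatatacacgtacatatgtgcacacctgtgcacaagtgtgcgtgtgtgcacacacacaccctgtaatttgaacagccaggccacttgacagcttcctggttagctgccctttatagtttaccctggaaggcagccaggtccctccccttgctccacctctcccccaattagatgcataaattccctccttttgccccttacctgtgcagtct
Slc9c1: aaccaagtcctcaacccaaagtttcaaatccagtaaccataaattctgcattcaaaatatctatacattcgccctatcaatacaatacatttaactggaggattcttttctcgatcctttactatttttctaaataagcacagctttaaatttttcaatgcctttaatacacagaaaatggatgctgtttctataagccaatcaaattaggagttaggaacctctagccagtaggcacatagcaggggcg
Atp1b3: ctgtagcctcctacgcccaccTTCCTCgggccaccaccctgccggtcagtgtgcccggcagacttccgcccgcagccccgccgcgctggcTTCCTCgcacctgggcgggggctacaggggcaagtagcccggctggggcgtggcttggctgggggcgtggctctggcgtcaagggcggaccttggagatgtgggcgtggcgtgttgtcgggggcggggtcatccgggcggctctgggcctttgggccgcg
The core occurred 1 time before Flrt3, 2 times before Atp1b3 and 0 times before Selenbp2 and Slc9c1. It also occurred 1 time before Hsd17b6 and 1 time before Csn2, whose windows are not shown. It is common in any case, since 7639 of 32851 promoters of the same length (23.3%) hold it on either strand, as do 22.6% of 9245 promoters of tested genes, 25.9% of 343 of called genes that rose and 25.8% of 310 of those that fell. A match is a run of letters and not evidence of binding. The ratio of observed to expected CpG was 0.714 before Atp1b3, near the median of 0.737 for tested genes, and 0.329 before Flrt3, 0.141 before Selenbp2 and 0.401 before Slc9c1. Over the called genes this ratio had a median of 0.637 for those that rose and 0.644 for those that fell.

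Several of the raised genes lay next to each other. Of 414 called genes that rose and have a position, 108 (26.1%) lay within 100 kb of another, whereas 12.2% of all 11375 tested genes lay that close to a gene that rose. Genes that fell were also grouped, with 100 of 419 (23.9%) near another beside 9.2% of tested genes. The loci here and in the next paragraphs were chosen because a gene there rose, and the counts around that gene include it. Over all genes tested, 3.66% rose. Around Selenbp2 on chromosome 3, Tuft1 (94612753 to 94658872) and Cgn (94760069 to 94787725) rose with it, 3 of 6 tested genes within 200 kb. Around Slc9c1 on chromosome 16, 4 of 6 tested genes rose, Slc9c1 included. Its uncharacterised neighbour Gm17783 was at 0.08, 0.08 and 0 TPM in WT and at 11.3, 10.1 and 11.5 TPM in cKO libraries. Gm609, looked up after the values were seen, was at 0 to 0.08 TPM in WT and 1.63 to 3.55 TPM in cKO libraries. Gcsam, a B cell signalling adaptor on the other side of Slc9c1, was at 4.11, 0.96 and 0.45 TPM in WT and at 8.56, 6.51 and 9.53 TPM in cKO libraries, a call lost in 9 of 10 fits without 1 library (adjusted p up to 0.0323) and held without WT library 1.

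Around Gstt1 on chromosome 10, 5 of 12 tested genes within 200 kb rose, Gstt1 included. Gstt2 was at 2.65, 6.61 and 3.64 TPM in WT and at 15.6, 18.1 and 17.7 TPM in cKO libraries (log2 fold change 1.84). Gstt3 was at 7.39, 8.51 and 7.62 TPM in WT and at 25.9, 22.3 and 28.7 TPM in cKO libraries (1.59). These glutathione transferases are similar in sequence, so part of their reads may be shared. Ddt, a D-dopachrome tautomerase related to the cytokine MIF, was at 50.1 to 61.7 TPM in WT and 135 to 147 TPM in cKO libraries (1.33). Mif itself, which has processed copies in the genome, was at 130 to 149 TPM in WT and 220 to 225 TPM in cKO libraries (0.69). In cDC1s the log2 fold changes of Gstt1, Gstt2 and Gstt3 were −0.58, −0.74 and −0.74, and the difference between subsets was called for each of them and for Ddt, but not for Mif (1.21 in cDC1s). The neighbours in this paragraph other than Gstt1 were looked up after the values were seen.

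Around Fcgr2b on chromosome 1, 4 of 10 tested genes within 200 kb rose, Fcgr2b included, and none fell. Fcgr2b, the inhibitory Fc receptor for IgG, was at 68.7, 148 and 90.1 TPM in WT and at 732, 738 and 776 TPM in cKO libraries (log2 fold change 2.93, SE 0.21, adjusted p 3.51e-05). Fcrla, an intracellular Fc receptor-like protein best known in B cells, was at 3.27, 5.04 and 3.2 TPM in WT and at 20.3, 20.2 and 19.1 TPM in cKO libraries (2.13, SE 0.15). Fcrlb, its close relative, was at 2.34, 4.11 and 3.35 TPM in WT and at 18.3, 17.2 and 18.5 TPM in cKO libraries (2.18, SE 0.18). For all 3 genes WT library 2 was the highest WT library and still lay far below every cKO library. Fcgr3, an activating IgG receptor that is similar in sequence to Fcgr2b, was at 20.8 to 28.3 TPM in WT and 33.3 to 46.3 TPM in cKO libraries (0.75, adjusted p 0.00977). Its call was lost in 9 of 10 fits without 1 library (adjusted p up to 0.0497), and held only without cKO cDC2 library 2. Between them, Fcgr4, also looked up after the values were seen, had a log2 fold change of −0.01. In the whole list of Fc receptors, 5 of 11 tested genes rose and none fell, with a median of 0.29, and at the lowest 3 were called with 1 library left out, among others WT library 1. The fifth was Fcgr1, the high-affinity IgG receptor, at 2.45, 4.39 and 3.02 TPM in WT and at 10.2, 5.79 and 9.68 TPM in cKO libraries (1.15), lost in 6 of 10 fits without 1 library (adjusted p up to 0.0389), those without cKO library 1 or 3 or WT library 1 or 3 among them.

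Around Cox6a2 on chromosome 7, the neighbours were those of Itgax, the gene whose promoter drives Cre. Cox6a2, a muscle subunit of cytochrome oxidase that pDCs also express, was at 1.75, 3.62 and 3.15 TPM in WT and at 40.2, 41.9 and 30.9 TPM in cKO libraries (log2 fold change 3.35, SE 0.26). Itgad, the integrin alpha D chain, was at 16, 15.9 and 9.71 TPM in WT and at 65.8, 43.6 and 54.8 TPM in cKO libraries (1.92, SE 0.20). Itgam, the gene of CD11b, was at 80.9, 86.3 and 112 TPM in WT and at 214, 166 and 191 TPM in cKO libraries (1.03, SE 0.14). Itgax was at 826, 828 and 1108 TPM in WT and at 1401, 1023 and 1179 TPM in cKO libraries, so its groups overlapped (0.39, adjusted p 0.0835). Of 12 tested genes near Itgax, 3 rose and none fell, in every fit without 1 library. Cre and these genes move together with the genotype, whether the transgene carries any of them was not tested, and the annotations of Itgad and Cox6a2 overlap.

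**Figure D3:**
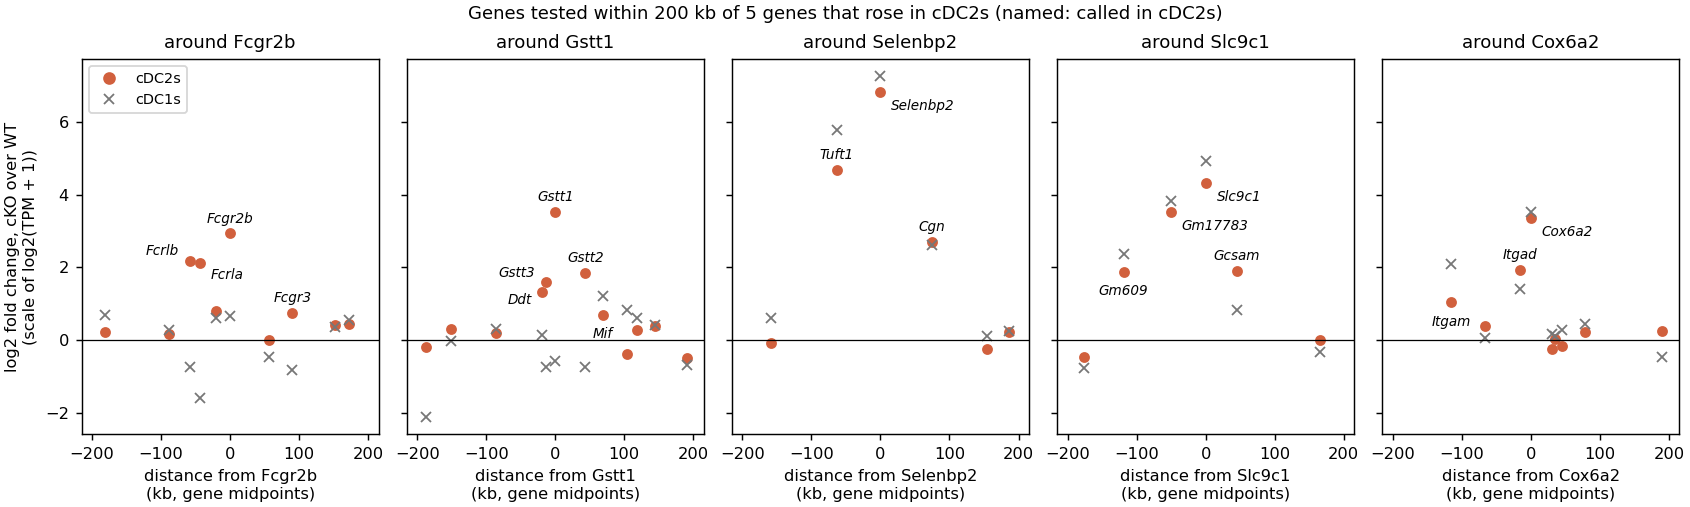
Log2 fold change (vertical axis) of every tested gene within 200 kb of Fcgr2b, Gstt1, Selenbp2, Slc9c1 and Cox6a2, by the distance between gene midpoints in kb (horizontal axis), in cDC2s (red points) and cDC1s (grey crosses). Named genes were called in cDC2s, and the crosses of Fcrla (−1.59), Fcrlb (−0.74) and the Gstt genes lie below 0 while their points lie between 1.59 and 3.52.

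Fxyd5, a regulatory subunit of the sodium-potassium pump that Atp1b3 belongs to, also rose, by far less. It was at 256, 252 and 273 TPM in WT and at 403, 360 and 419 TPM in cKO libraries (log2 fold change 0.59, SE 0.08). Every cKO library was above every WT library, and the calls of Atp1b3 and Fxyd5 held in all 10 fits without 1 library.

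The largest falls included channels, a homeobox gene and immediate-early factors. Asprv1, a protease of the skin, was at 19.7, 46.4 and 23.8 TPM in WT and at 3.59, 3.32 and 3.37 TPM in cKO libraries (log2 fold change −2.71, SE 0.38, adjusted p 0.00147). Hoxc4, a homeobox transcription factor, was at 10.8, 10.4 and 11.3 TPM in WT and at 1.01, 1.04 and 1.03 TPM in cKO libraries (−2.55, SE 0.13, adjusted p 2.09e-06). The Hoxc4 libraries of each group lay within a narrow band, far from the other group. Ryr3, a calcium release channel, was at 16.1, 25.2 and 25.4 TPM in WT and at 3.4, 2.86 and 3.42 TPM in cKO libraries (−2.43, SE 0.17). Scn3a, a voltage-gated sodium channel, was at 18.9, 16.7 and 21 TPM in WT and at 3.64, 3.49 and 3.27 TPM in cKO libraries (−2.15, SE 0.12). Tmod2, which caps actin filaments, was at 10.6, 11.5 and 10.2 TPM in WT and at 2.11, 1.85 and 1.97 TPM in cKO libraries (−1.98, SE 0.12). In each of these genes every WT library exceeded every cKO library. Gpr4, a receptor that senses protons, was at 40.1, 32.8 and 43.6 TPM in WT and at 11.5, 8 and 8.5 TPM in cKO libraries (−1.95, SE 0.14). Fndc5, the precursor of irisin, was at 6.5, 6.56 and 7.66 TPM in WT and at 0.3, 0.43 and 1.1 TPM in cKO libraries (−2.32, SE 0.19). Tcf7, a transcription factor of the WNT pathway that marks T cells and some DC precursors, was at 71, 87.3 and 73.6 TPM in WT and at 24.3, 25.8 and 24.1 TPM in cKO libraries (−1.60, SE 0.23). Bmp2 was at 21.9, 6.07 and 6.48 TPM in WT and at 0.99, 1.09 and 0.77 TPM in cKO libraries (−2.45, SE 0.37), with WT library 1 the highest. Without cKO library 3 its adjusted p was 0.0115. Crispld2 (−2.23), a secreted protein, and Inafm1 (−2.36), whose function is little known, lost their calls (adjusted p up to 0.0221 and 0.0258) in 4 and 5 of 10 fits without 1 library, including those without any 1 of the cKO cDC2 libraries.

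Earlier work placed TRIM33 with PU.1 at a handful of genes, and 5 of them were expressed enough to be tested. All 5 were called, 3 higher and 2 lower. The study cites that work as TRIM33 opposing transcription driven by PU.1 at these genes. By that account all 5 would rise, and 2 of them fell. Egr2, 1 of these 2, is also in the immediate-early list, which was lower on the whole (below). The cause of either fall was not tested. Besides Atp1b3 and Fcgr2b, Bcl2l11 rose, which encodes the proapoptotic protein BIM. It was at 12.4, 13.9 and 15.7 TPM in WT and at 71.7, 60.5 and 67.6 TPM in cKO libraries (log2 fold change 2.17, SE 0.13, adjusted p 6.32e-06). Egr2, an early growth response factor, was at 188, 40.8 and 40 TPM in WT and at 13.9, 10.1 and 12 TPM in cKO libraries (−2.41, SE 0.51, adjusted p 0.00986). Cdkn2b, the cell cycle inhibitor p15, was at 6.64, 22.3 and 10.7 TPM in WT and at 2.14, 3.13 and 2.01 TPM in cKO libraries (−1.91, SE 0.37, adjusted p 0.00656). The groups did not overlap in either gene, but the WT libraries spread widely, with library 1 high for Egr2 and library 2 high for Cdkn2b. The calls of Egr2 and Cdkn2b were lost in 8 and 7 of 10 fits without 1 library (adjusted p up to 0.0377 and 0.0312), in both without WT library 2 or any of the cKO cDC2 libraries, while the other 3 held in all. This list was drawn from publications that led to the study and is not independent of its question.

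The genes that mark cDC2s changed in both directions. Of 31 tested transcription factors of the cDC2 programme, 3 fell (3.69% of all genes did) and none rose, with a median of −0.10. Irf4, which cDC2s need for migration and helper T cell priming, was at 84.5, 54 and 56.9 TPM in WT and at 33.3, 25.6 and 30.8 TPM in cKO libraries (log2 fold change −1.08, SE 0.19, adjusted p 0.0039). Ikzf3, the lymphoid factor Aiolos, was at 4.53, 5.81 and 8.22 TPM in WT and at 1.86, 1.23 and 1.64 TPM in cKO libraries (−1.46, SE 0.20). Bcl6, a repressor that DCs and follicular T cells use, was at 89.1, 72.6 and 80.7 TPM in WT and at 52.8, 38.2 and 50.7 TPM in cKO libraries (−0.77, SE 0.14). All 3 had every cKO library under every WT library. Irf8, the factor that favours cDC1s, was looked up after the values were seen. It was at 47.4, 31.5 and 24.2 TPM in WT and at 53.2, 42.3 and 89.8 TPM in cKO libraries, with overlap (adjusted p 0.0617). Without cKO library 2 or 3 the calls of Irf4 and Bcl6 were lost (adjusted p up to 0.0178 and 0.0184), Bcl6 was lost in 6 of 10 fits, and at the lowest 1 factor of the list was called, without cKO library 2.

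Of 30 tested cDC2 surface and Notch2-dependent genes, 6 rose and 3 fell (3.66% and 3.69% of all genes did), with a median of 0.12. Those that rose included receptors shared with monocytes. Cx3cr1, the fractalkine receptor, was at 14.8, 17.4 and 17.9 TPM in WT and at 55.3, 38.2 and 65 TPM in cKO libraries (log2 fold change 1.58, SE 0.28). Clec10a, a lectin for galactose sugars, was at 11.1, 17.1 and 12.9 TPM in WT and at 45.1, 29.9 and 53.1 TPM in cKO libraries (1.55, SE 0.21). Ccr2, the receptor for CCL2, was at 15.2, 28.3 and 13.2 TPM in WT and at 51.9, 45.7 and 61.1 TPM in cKO libraries (1.5, SE 0.29). For each of them cKO library 2 was the lowest cKO library and still exceeded every WT library. Mgl2 (1.14), a near copy of Clec10a that may share its reads, Itgam (1.03) and Csf1r (0.94) completed the rises. The falls were of genes tied to the ESAM+, Notch2-dependent fraction. Cd4 was at 308, 261 and 366 TPM in WT and at 135, 108 and 117 TPM in cKO libraries (−1.37, SE 0.15, adjusted p 0.000473). Esam, an adhesion molecule, was at 45.4, 49.1 and 63.1 TPM in WT and at 22.9, 23.2 and 21.7 TPM in cKO libraries (−1.17), and Dtx1, a target of Notch, was at 235, 253 and 404 TPM in WT and at 142, 123 and 112 TPM in cKO libraries (−1.2). Every cKO library of these 3 lay under every WT library. Mgl2, Esam and Dtx1 were looked up after the values were seen. Cx3cr1 and Ccr2 lost their calls in 4 and 7 of 10 fits without 1 library (adjusted p up to 0.0229 and 0.0334), both without WT library 1 and without cKO library 1 or 3, and 4 genes of the list were called without cKO library 3.

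Genes of mature, migratory DCs tended to be lower. In the CCR7 programme, 4 of 25 tested genes fell (3.69% of all genes did) and none rose, with a median of −0.55 beside −0.03 over all genes. An unadjusted p under 0.05 was reached by 14 (34.4% of all genes), all of them lower. Ccr7 was at 347, 298 and 163 TPM in WT and at 48.7, 71.2 and 88.3 TPM in cKO libraries (log2 fold change −1.91, SE 0.34, adjusted p 0.00431). Apol7c, an apolipoprotein L of cross-presenting DCs, was at 306, 574 and 344 TPM in WT and at 94.9, 132 and 187 TPM in cKO libraries (−1.56, SE 0.28). Cd83, a surface mark of mature DCs that stabilises MHC class II, was at 435, 387 and 202 TPM in WT and at 112, 146 and 140 TPM in cKO libraries (−1.29, SE 0.26). The WT libraries of Ccr7 and Cd83 spread widely, library 3 being the lowest, yet stayed above the cKO libraries. Marcks, a membrane-bound actin regulator, was at 258, 299 and 247 TPM in WT and at 156, 140 and 139 TPM in cKO libraries (−0.88, SE 0.11). The call of Marcks held in all 10 fits without 1 library, whereas those of Ccr7, Apol7c and Cd83 were lost in 5, 3 and 7 (adjusted p up to 0.0172, 0.0184 and 0.0288), each without WT library 2 or without cKO library 1 or 2. The list held 1 call without WT library 2 and 6 without WT library 3.

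Costimulatory and coinhibitory genes followed with 5 falls and 1 rise among 22 tested (3.69% and 3.66% of all genes) and a median of −0.37. Cd86, a ligand of CD28, was at 98.8, 102 and 84.1 TPM in WT and at 47.2, 51.3 and 58.6 TPM in cKO libraries (log2 fold change −0.85, SE 0.11, adjusted p 0.000911). Cd274, the checkpoint ligand PD-L1, was at 159, 141 and 138 TPM in WT and at 98.8, 86.7 and 89.9 TPM in cKO libraries (−0.66, SE 0.11). Cd200r1, an inhibitory receptor, was at 26, 25.1 and 18.5 TPM in WT and at 10.1, 12 and 10.3 TPM in cKO libraries (−1.02, SE 0.16). Ly9, a SLAM family receptor, went from 148 to 168 TPM in WT libraries to 97.3 to 102 TPM in cKO libraries (−0.65), and Havcr2, the gene of TIM-3, from 225 to 321 TPM to 144 to 183 TPM (−0.70). The cKO values of all 5 lay under the WT values. Pvr, a ligand of DNAM-1 and TIGIT, went the other way, from 5.96 to 6.79 TPM in WT libraries to 9.85 to 14 TPM in cKO libraries (0.80). Cd86 and Ly9 were called in every fit without 1 library, while Cd274, Cd200r1, Havcr2 and Pvr were lost in 4, 3, 7 and 5 of 10 (adjusted p up to 0.0204, 0.0148, 0.0368 and 0.0222), all 4 without cKO library 3, which left 2 calls in the list.

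Antigen presentation genes gave 1 call. Of 19 tested genes of MHC class II presentation, 1 fell, 6 had an unadjusted p under 0.05 (5 of them lower), 7 had groups that did not overlap, and the median was −0.00. Both counts were near the shares over all genes tested, of which 34.4% had such a p and 35.7% did not overlap. The gene that fell was H2-Ob, a chain of the H2-O inhibitor of peptide loading, at 357, 366 and 431 TPM in WT and at 222, 214 and 207 TPM in cKO libraries (log2 fold change −0.84, SE 0.09, adjusted p 0.000286). Its partner H2-Oa was at 914, 848 and 851 TPM in WT and at 628, 656 and 594 TPM in cKO libraries (−0.48, adjusted p 0.00288), and Rfx5, a factor that activates class II genes, had −0.44 (adjusted p 0.00991), both short of the fold threshold alone and both looked up after the values were seen. The class II chain H2-Aa was at 14546 to 17154 TPM in WT and 15347 to 16717 TPM in cKO libraries. Of 17 tested class I genes 0 were called by limma, with 3 at an unadjusted p under 0.05, and B2m was at 7453 to 9172 TPM in WT and 7325 to 9192 TPM in cKO libraries. The groups overlapped for H2-Aa and for B2m.

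Among cytokines, chemokines and pattern receptors, single genes moved. Of 17 tested cytokines 1 rose and 1 fell (3.66% and 3.69% of all genes did). Il1rn, the antagonist of the IL-1 receptor, was at 9.59, 16 and 13.4 TPM in WT and at 42, 40.1 and 50.3 TPM in cKO libraries (log2 fold change 1.71, SE 0.19, adjusted p 0.000391). Tnf was at 200, 100 and 132 TPM in WT and at 52, 50.1 and 55.6 TPM in cKO libraries (−1.38, SE 0.24). WT library 1 was the highest for Tnf, and the cKO libraries lay close together. Of 12 tested chemokines 2 rose, Ccl6 from 62.1 to 83 TPM in WT libraries to 121 to 128 TPM in cKO libraries (0.82) and Cxcl10 from 27.1 to 32.8 TPM to 43.6 to 57.9 TPM (0.77). Among 26 tested pattern recognition receptors, Tlr7, a sensor of single-stranded RNA, was at 80.7, 87.9 and 76.8 TPM in WT and at 45.7, 38.6 and 41.5 TPM in cKO libraries (−0.95, SE 0.12). Tlr8, its neighbour in function, was at 5.18 to 7.38 TPM in WT and 9 to 12.9 TPM in cKO libraries (0.74, adjusted p 0.00989). Of 27 tested interferon-stimulated genes 0 were called by limma, 6 had an unadjusted p under 0.05 (34.4% of all genes did), and the median was −0.01. In 16 tested chemokine and positioning receptors 2 rose (Cx3cr1, Ccr2) and 2 fell, Ccr7 and Cxcr3 (−0.84). Without 1 library, Tnf, Cxcl10, Cxcr3 and Tlr8 were lost in 3, 7, 6 and 9 of 10 fits (adjusted p up to 0.018, 0.0334, 0.0206 and 0.0508), all without cKO library 1, and the receptors held 0 calls without WT library 1.

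Immediate-early, AP-1 and EGR genes were lower on the whole. Of 25 tested, 4 fell (3.69% of all genes did) and none rose, and the median was −1.15. An unadjusted p under 0.05 was reached by 19 (34.4% of all genes), all of them lower. Egr1, the most abundant of those that fell, was at 2928, 1014 and 906 TPM in WT and at 305, 249 and 274 TPM in cKO libraries (log2 fold change −2.34, SE 0.36, adjusted p 0.0022). Ier3, a stress-induced regulator of survival, was at 154, 64 and 72.6 TPM in WT and at 30.4, 24 and 31.9 TPM in cKO libraries (−1.62, SE 0.31). Ier5, a cofactor of heat shock factor 1, was at 683, 635 and 604 TPM in WT and at 347, 344 and 379 TPM in cKO libraries (−0.84, SE 0.08, adjusted p 0.000225). WT library 1 was the highest for all 3, and the others also lay above every cKO library. Such genes respond to digestion and sorting, and the part of handling in these values was not tested. Egr1 was lost without cKO library 3 (adjusted p 0.0115) and Ier3 in 5 of 10 fits without 1 library (up to 0.0273), and the list held 1 call without cKO library 3, 7 without WT library 1 and 9 without WT library 3. Of 19 tested NF-kB factors and inhibitors 0 were called by limma, with 10 at an unadjusted p under 0.05 (34.4% of all genes), 9 of them lower. Nfkbia was at 1803, 716 and 668 TPM in WT and at 665, 644 and 720 TPM in cKO libraries, so only WT library 1 stood out. Relb, the NF-kB subunit that cDC2s need, was at 432, 496 and 463 TPM in WT and at 362, 330 and 380 TPM in cKO libraries (−0.38, adjusted p 0.162), without overlap. Of the 19 genes 9 did not overlap between groups, beside 35.7% of all genes tested.

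Heat shock genes, which handling can also raise, gave 1 rise among 19 tested. Hspb1, a small chaperone, was at 0.73, 3.29 and 3.52 TPM in WT and at 27.8, 13.3 and 16 TPM in cKO libraries (log2 fold change 2.57, SE 0.37, adjusted p 0.00163), with every cKO library above every WT library. Hspa1b, an inducible HSP70 gene, was at 130, 43.2 and 1193 TPM in WT and at 3660, 2239 and 2786 TPM in cKO libraries (3.9, SE 0.94, adjusted p 0.0173), which did not pass the test. The groups did not overlap, but WT library 3 was far above the other WT libraries, and without it the log2 fold change was 5.22 with an adjusted p of 0.000284. Its near-identical copy Hspa1a, looked up after the values were seen, had the same pattern (33.8 to 796 TPM in WT, 1443 to 2416 TPM in cKO libraries). Of 15 tested genes of the unfolded protein response 0 were called by limma, with 2 at an unadjusted p under 0.05 (34.4% of all genes).

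Markers of other cells were read for what else the sort could hold. Monocyte and macrophage markers had 3 rises and 1 fall among 20 tested (3.66% and 3.69% of all genes), and a median of 0.10. Their sum ran from 2399 to 3079 TPM in WT and 3608 to 4804 TPM in cKO libraries, but without Lyz2 the sums overlapped, at 1601 to 2104 TPM in WT and 1627 to 2355 TPM in cKO libraries. Lyz2, the lysozyme of myeloid cells, was at 617, 1048 and 798 TPM in WT and at 1945, 1981 and 2449 TPM in cKO libraries (log2 fold change 1.40, SE 0.23, adjusted p 0.00284), with reads that may be shared with Lyz1. Csf1r, the receptor for M-CSF, was at 155, 154 and 161 TPM in WT and at 345, 232 and 346 TPM in cKO libraries (0.94, SE 0.16). Apoe, the lipid carrier of macrophages, fell from 254 to 325 TPM in WT libraries to 129 to 189 TPM in cKO libraries (−0.81). C1qa, a complement gene of splenic macrophages, was at 140, 145 and 61.5 TPM in WT and at 113, 94.9 and 152 TPM in cKO libraries, and Adgre1, the gene of F4/80, was at 180 to 187 TPM in WT and 147 to 152 TPM in cKO libraries. The groups overlapped for C1qa, and for Adgre1 the cKO libraries lay under the WT libraries. Psap, a lysosomal activator of lipid breakdown, was at 1593, 1595 and 1983 TPM in WT and at 4025, 2875 and 4247 TPM in cKO libraries (1.09, SE 0.16), 1 rise among 20 lysosomal genes tested, whereas Ctss, a cathepsin of the same compartment, had a log2 fold change of 0.09. Without cKO library 3 the monocyte and macrophage list held 0 calls (Lyz2 adjusted p 0.0168), and Csf1r and Apoe were lost in 4 and 7 of 10 fits without 1 library (up to 0.0186 and 0.0206).

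B cell markers had 3 falls among 5 tested (3.69% of all genes fell), in every fit without 1 library. Their sum ran from 69.4 to 80.7 TPM in WT and 53.4 to 54.4 TPM in cKO libraries. Blk, a SRC kinase of B cells and some DCs, was at 13.8, 14.6 and 19.9 TPM in WT and at 3.35, 3.84 and 3.42 TPM in cKO libraries (log2 fold change −1.90, SE 0.20). Ms4a1, the gene of CD20, was at 16.7, 21.5 and 12.4 TPM in WT and at 5.37, 5.87 and 4.8 TPM in cKO libraries (−1.46, SE 0.17). Cr2, the complement receptor CD21, was at 2.84 to 3.49 TPM in WT and 0.56 to 0.67 TPM in cKO libraries (−1.40). Cd79a, a chain of the B cell receptor, was at 2.29, 2.95 and 1.63 TPM in WT and at 2.91, 2.21 and 2.53 TPM in cKO libraries, so the groups overlapped. Cd79b, also on the list and looked up after the values were seen, was at 35.6, 35.6 and 29.1 TPM in WT. Its cKO libraries were at 40.7, 39.7 and 40.9 TPM, above every WT library but not called (0.27, adjusted p 0.422). Kit, the receptor for stem cell factor, was at 188 to 257 TPM in WT and 104 to 136 TPM in cKO libraries (−0.88), and Hdc, which makes histamine, at 5.3 to 7.29 TPM in WT and 2.26 to 2.89 TPM in cKO libraries (−0.98), the only tested members of the basophil and mast cell list. Hdc lost its call without cKO library 2 or 3 (adjusted p up to 0.0137). Jchain, the joining chain of plasma cell antibodies, was at 24.7, 25.5 and 9.16 TPM in WT and at 4.55, 4.14 and 6.52 TPM in cKO libraries (−1.67), lost in 7 of 10 fits without 1 library (up to 0.0272), among them those without WT library 1 or 2. Klrk1, the NKG2D receptor, rose from 21.4 to 34 TPM in WT libraries to 55.9 to 62.7 TPM in cKO libraries (1.03), the 1 call among 4 NK cell genes, and was lost without cKO library 3 (0.0168). T cell, neutrophil, erythroid, platelet and sex-linked markers gave 0 calls by limma, and an unadjusted p under 0.05 was reached by 1 T cell gene (Il7r) and 0 of the others. Besides Cox6a2, Smim5 (0.76) was called among 11 pDC identity genes, and Gcsam was the 1 call among 15 cDC1 identity genes. Smim5 lost its call in 7 of 10 fits without 1 library (up to 0.0323), among them those without WT library 2 or 3 or any of the cKO cDC2 libraries. How far other cells enter the changes of this list was not tested.

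Genes of DNA replication moved as a block. All 27 tested S phase genes had a positive log2 fold change, with no overlap between groups (35.7% of all genes had none), and 22 were called, with a median of 0.96. Prim1, the catalytic subunit of primase, was at 23.6, 25.9 and 27.7 TPM in WT and at 57, 76 and 58.5 TPM in cKO libraries (1.27, SE 0.12, adjusted p 0.000203). It lies 7.57 kb from Hsd17b6 on chromosome 10. Mcm5 and Mcm2, subunits of the replicative helicase, rose from 52.8 to 74 TPM and 45.5 to 58.1 TPM in WT libraries to 130 to 148 TPM and 108 to 120 TPM in cKO libraries (1.2 and 1.16). Gins2, which joins that helicase, was at 14.5, 14.2 and 13.6 TPM in WT and at 29.7, 37.2 and 27.6 TPM in cKO libraries (1.09, SE 0.12). Of 28 tested G2 and mitosis genes 0 were called by limma, 7 had an unadjusted p under 0.05, all higher, a share under the 34.4% of all genes, and the median was 0.33. Top2a, a topoisomerase of dividing cells, was at 63.9, 73.8 and 93.3 TPM in WT and at 106, 145 and 104 TPM in cKO libraries (0.61, adjusted p 0.0534). Ube2c, which drives the exit from mitosis, was at 67.4, 57.6 and 111 TPM in WT and at 91.2, 92.2 and 92.2 TPM in cKO libraries, with overlap. Between the 2 lists a test of the difference was not made. Among 19 tested G1 regulators 5 rose and 2 fell (3.66% and 3.69% of all genes did). Ccne2, a cyclin of S phase entry, rose from 7.98 to 10.2 TPM in WT libraries to 16.4 to 22.6 TPM in cKO libraries (0.98), as did Ccne1 (1.01). Cdkn2a, which encodes p16 and ARF beside Cdkn2b, fell from 1.77 to 4.62 TPM to 0.58 to 0.66 TPM (−1.25). S phase calls numbered 16 without cKO library 1 and 16 to 23 over the 10 fits, and the calls of Ccne1 and Cdkn2a were lost in 9 and 7 of them (adjusted p up to 0.0282 and 0.026).

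Survival genes and silencing factors gave few calls, and glycolysis genes gave more. Of 18 tested proapoptotic genes only Bcl2l11 was called, and 12 had an unadjusted p under 0.05 (34.4% of all genes did), 7 higher and 5 lower. Pmaip1, which encodes NOXA, was at 1305, 662 and 505 TPM in WT and at 301, 302 and 290 TPM in cKO libraries (log2 fold change −1.35, adjusted p 0.0152), and did not pass the test. Of 12 tested prosurvival genes 0 were called by limma, 6 had an unadjusted p under 0.05 (34.4% of all genes did), all lower, and the median was −0.32. Mcl1 was at 492 to 651 TPM in WT and 435 to 446 TPM in cKO libraries (−0.35, adjusted p 0.0357). Of 20 tested glycolysis genes 7 rose and 1 fell (3.66% and 3.69% of all genes did), and the median was 0.45. An unadjusted p under 0.05 was reached by 16 of them (34.4% of all genes). Tpi1, triose phosphate isomerase, rose from 54.8 to 59.2 TPM in WT libraries to 98.5 to 124 TPM in cKO libraries (0.92, SE 0.09), and Pfkp, a phosphofructokinase, from 14.4 to 17.9 TPM to 23.3 to 30.9 TPM (0.77). Slc2a3, a glucose transporter, fell from 81.2 to 94.9 TPM in WT libraries to 44.4 to 53.8 TPM in cKO libraries (−0.87). Without cKO library 3 the glycolysis list held 2 calls, and Slc2a3 was lost in 8 of 10 fits (adjusted p up to 0.033). Of 25 tested heterochromatin and silencing factors 1 rose, Dnmt1, the maintenance DNA methyltransferase, at 33.4, 33.8 and 53.6 TPM in WT and at 88.5, 68.9 and 74.1 TPM in cKO libraries (0.95, SE 0.17), a call lost in 6 of 10 fits (up to 0.0192), among them those without WT library 1 or 2. Of 25 tested sterol and fatty acid synthesis genes 0 were called by limma, with 6 at an unadjusted p under 0.05 (34.4% of all genes).

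**Figure D4:**
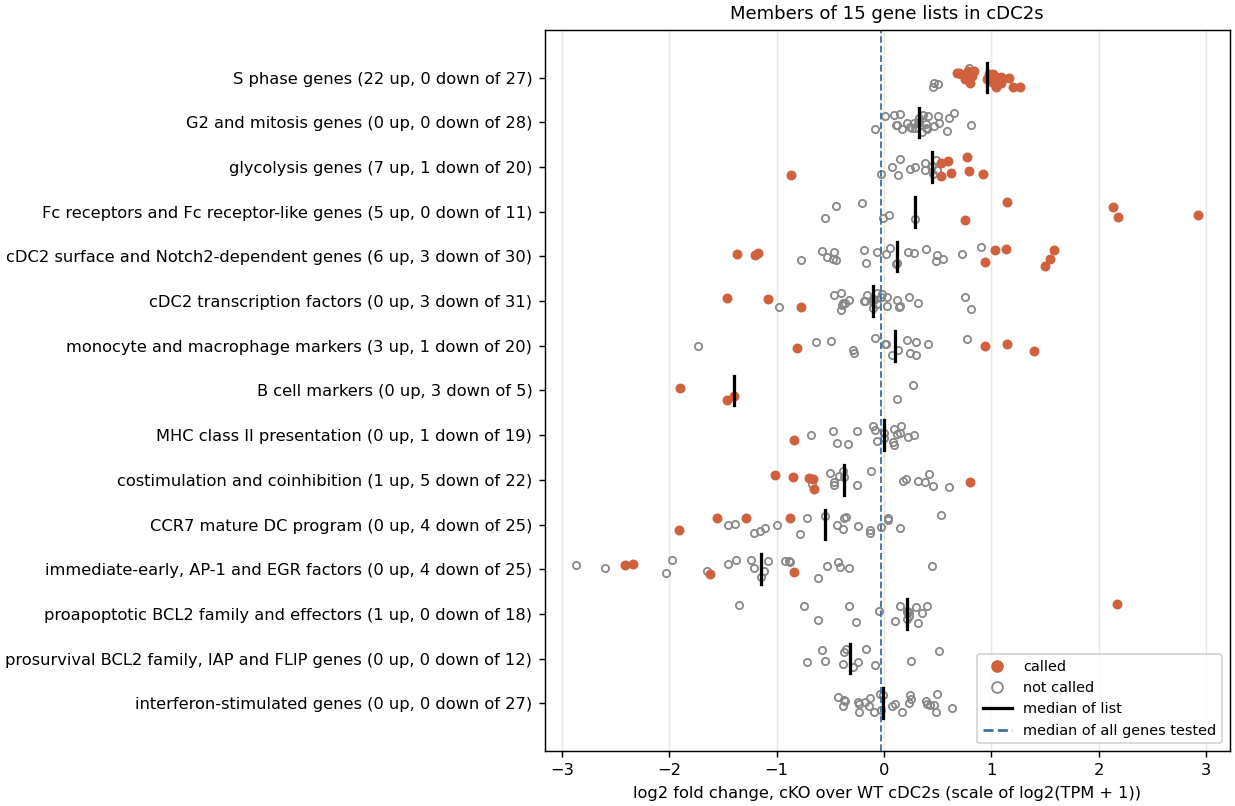
Log2 fold change of cKO over WT cDC2s (horizontal axis) for each tested member of 15 gene lists (rows), with called genes filled, the median of each list as a black bar and the median of all genes tested (−0.03) as a dashed line. The S phase genes sit together around a median of 0.96, the immediate-early genes spread around −1.15, and the Fc receptor list holds a few large rises.

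The study sorted genes by their response to the loss of TRIM33 in bone marrow progenitors and by their dependence on PU.1 in DCs, which it took from another publication, and these lists were read here in cDC2s. Of 80 tested genes that depend on TRIM33 in progenitors and are repressed by PU.1 in DCs, 24 rose and 3 fell in cKO cDC2s. The median of the list was 0.38, and over all genes tested 3.66% rose and 3.69% fell. Most of the calls thus ran against the direction that defines the list in progenitors. In cDC1s, 22 genes of the list rose and 7 fell, where 2479 of all 11405 genes tested were called. Emilin2, an extracellular matrix glycoprotein, was at 3.88, 5.81 and 8.42 TPM in WT and at 31.1, 17.6 and 30.6 TPM in cKO libraries (log2 fold change 1.97, SE 0.27). Plcb1, a phospholipase C, was at 0.28, 0.35 and 0.54 TPM in WT and at 4.62, 3.74 and 4.34 TPM in cKO libraries (1.91, SE 0.14). Ace, the angiotensin-converting enzyme, was at 17, 23.9 and 45.3 TPM in WT and at 128, 67.3 and 105 TPM in cKO libraries (1.83, SE 0.33). Without cKO library 3 this list held 6 calls, and Ace was lost in 6 of 10 fits (adjusted p up to 0.0253). Of 81 tested genes that depend on TRIM33 in progenitors and on PU.1 in DCs, 7 fell and 3 rose. The median was −0.20, and the shares over all genes were 3.69% and 3.66%. Cacna1e, a calcium channel, fell from 7.6 to 11.4 TPM in WT libraries to 1.64 to 2.9 TPM in cKO libraries (−1.66), Pou6f1, a POU factor, from 7.1 to 9.53 TPM to 1.72 to 2.29 TPM (−1.60), and Adam19, a metalloprotease, from 83.8 to 144 TPM to 36.1 to 54.3 TPM (−1.25). Of 9 genes repressed by TRIM33 in progenitors and dependent on PU.1 in DCs, 2 rose (Fcrlb, Gcsam) and 4 fell, among them Cdh17, an intestinal cadherin, at 13.5, 13.9 and 19 TPM in WT and at 4.87, 6.07 and 4.2 TPM in cKO libraries (−1.44, SE 0.16). Of 8 genes repressed by TRIM33 in progenitors and by PU.1 in DCs, Fcgr2b and Pald1, a phosphatase-like protein (0.96), rose and none fell.

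Much of the cDC2 response was also seen in cDC1s, and part of it was not. Of the 838 genes called in cDC2s, 465 were also called in cDC1s, 439 of them in the same direction and 26 in the opposite one. Over all 11405 genes tested, 2479 were called in cDC1s. Both sets of calls use the same estimate of spread and are not independent. A test of the difference, the cDC2 change minus the cDC1 change in the same fit, called 260 of 11405 genes (2.28%), of which 133 were positive and 127 negative. The median of this difference over all genes was −0.22 with TPM as deposited and −0.02 with median-of-ratios scaling, where 246 were positive and 94 negative, so a small difference has no firm sign. Of the 373 cDC2 calls that were not cDC1 calls, 55 were called for the difference, so for most of them a difference between subsets was not shown. Genes around Fcgr2b differed between the subsets. Fcgr2b rose by 2.93 in cDC2s and had a log2 fold change of 0.65 in cDC1s (difference 2.29, SE 0.34), and Fcrla had 2.13 and −1.59 (difference 3.72, SE 0.24). Bcl2l11 had 2.17 in cDC2s and 0.90 in cDC1s (difference 1.27, SE 0.20, adjusted p 0.0055). Some called differences come with a gene that WT cDC1s hardly transcribe, so that a fall there could not be measured. Hoxc4 was at 0 and 0.15 TPM in WT cDC1s, Ryr3 at 0.1 and 0.06 TPM, Scn3a at 0.05 and 0.1 TPM, Tmod2 at 0.32 and 0.26 TPM, and Blk at 0.24 and 0.65 TPM. Their called differences thus rest on the fall in cDC2s alone. Pltp was low in cDC1s too, at 0.77 and 0.55 TPM in WT and 0.43 and 0.8 TPM in cKO libraries, whereas it rose in cDC2s. Ace rose in cDC2s and was at 2.99 and 1.62 TPM in WT and 0.36 and 0.34 TPM in cKO cDC1s (difference 3.09). In the other direction, Epb41l4b rose by 3.81 in cDC2s and 8.27 in cDC1s, Apcdd1 by 4.0 and 7.28, and Cnpy1, an FGF signalling regulator, by 1.87 and 8.23. Selenbp2 rose by 6.82 and 7.26, with a difference of −0.43 (SE 0.41) that did not pass the test. Il12b, a subunit of IL-12, was at 4.26 to 7.32 TPM in WT and 3.72 to 6.24 TPM in cKO cDC2s, while its cDC1 change was −4.18 (difference 4.05, SE 0.38). With 2 libraries in each cDC1 group, the difference was called for as few as 59 genes when cKO cDC1 library 1 was left out.

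**Figure D5:**
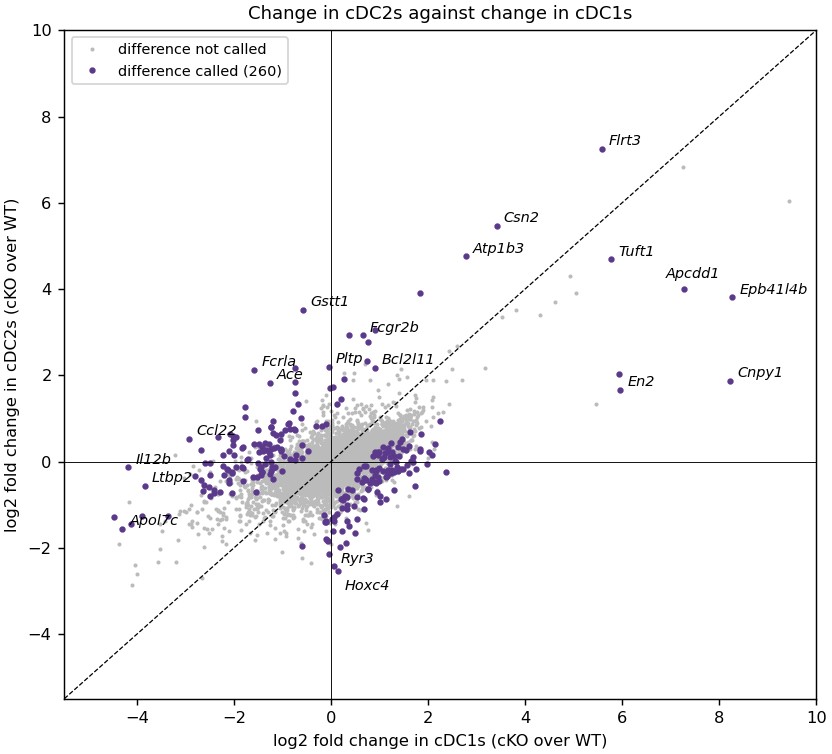
Log2 fold change of cKO over WT in cDC2s (vertical axis) against that in cDC1s (horizontal axis) for the 11405 genes tested, with the 260 genes called for the difference in purple and equal change on the dashed line. Fcrla, Gstt1, Pltp and Ace lie above the line with little or opposite change in cDC1s, Hoxc4 and Ryr3, which are at 0.15 TPM or less in WT cDC1s, lie below it at a cDC1 change near 0, and Epb41l4b, Apcdd1 and Cnpy1 lie far to the right.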

How the data were processed

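RNA-seq was read as the gene values that the authors deposited for 10 libraries of sorted splenic cDCs, 3 WT and 3 cKO of cDC2s and 2 WT and 2 cKO of cDC1s, grouped by the sample titles. The 6 pDC libraries of the series are in another table and were not compared here. Total RNA was depleted of ribosomal RNA and sequenced as single reads of 50 bases on a BGISEQ-500. Reads were filtered with SOAPnuke and mapped to mm10 with HISAT2 (2.0.4), and expression was estimated with Bowtie2 (2.2.5) and RSEM (1.2.12), as the methods and the submitters' processing notes state. The release of the transcript reference and the rule for which genes the table lists are not given in the sources used here. The deposited TPM values are scaled by the authors to sum to 1 M in each library. FPKM values of the same genes were also deposited and served as an alternative. These are not counts, so limma took the place of the count model of the study, DESeq2, with its thresholds kept.

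All genes whose TPM averaged 1 or more in the 6 cDC2 libraries were fitted as log2(TPM + 1) with limma 3.58.1 (lmFit, contrasts.fit and eBayes with a trend) in R 4.3.3, as 4 group means over the 10 libraries. This scale understates the change of low genes. Contrasts were cKO minus WT in cDC2s, and that change minus the same in cDC1s. Two-sided p-values were adjusted by Benjamini-Hochberg over 11405 genes. Calls needed an adjusted p no higher than 0.01 and a log2 fold change of 0.5 or more in size. Errors of fold changes are limma standard errors. The p-values measure the spread between these libraries, which the study describes as biological repeats from pooled mice, with more mice in each cKO pool. On simulated data with 200 changed genes among 11405, the cDC2 contrast found 86.4% of changes of 1 log2 unit and 97.8% of changes of 2, with 0 false calls. The simulated noise was independent between libraries, with 1 spread per gene for both groups. It thus holds no library that stands apart, and does not measure the error rate of the calls reported here.

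Depth was estimated from the steps between low FPKM values, at 18.43 to 20.14 M reads for cDC2 libraries, where 1 TPM on a transcript of 2000 bases is 18.05 to 21.9 reads. Limits of this kind cover counting error only, since the sources name no molecular identifiers. Names, positions and promoters came from RefSeq for GRCm38.p6, the mm10 assembly, which named 17667 of 17721 genes. Tuft1 had no promoter entry. Tables were made with pandas 2.3.3 and numpy 2.4.6, and plots with matplotlib 3.10.9, in Python 3.11.15.

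Genes were named by rule: Trim33, the 12 largest rises and falls, the 6 largest rises from a WT mean of at least 10 TPM and falls from at least 50, called genes under 0.5 TPM in every WT library and over 5 in cKO libraries, the 5 largest differences from cDC1s each way, and in each of 46 gene lists the called genes (the first 4 where more than 6 were called) with the most abundant members where fewer than 2 were. Any other gene is said to be looked up after its values were seen, apart from markers used to check the sort. Members and lists were chosen with earlier results of these data known. The 4 progenitor lists come from the study, which chose them on other samples and took the PU.1 response of DCs from another publication. Whether replicate numbers pair the libraries was checked by the correlation of deviations from the group means. For the same numbers it was −0.25, 0.25 and −0.16, and for other numbers −0.35 to 0.47, so no pairing was used. With 3 libraries in a group this check cannot exclude pairing. Alternatives were a pseudocount of 0.1 TPM, no filter, a mean of at least 5 TPM, FPKM, median-of-ratios and quantile scaling, the 6 cDC2 libraries alone, a replicate block, no trend, and each library left out in turn. The share of all genes with an unadjusted p under 0.05 and the monocyte sum without Lyz2 were added after the values were seen. All value columns of the cDC table were mapped to a library. Results for a few genes are not reported here.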

Additional observations from a re-analysis of the deposited data

Results flagged for a closer look

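Of the genes named above, 37 changed to a different extent in cDC2s and cDC1s by limma's test of the difference (adjusted p at most 0.01, size at least 0.5), 23 with a larger value in cDC2s and 14 with a smaller one. Values are the cDC2 log2 fold change minus the cDC1 log2 fold change, and each cDC1 group has 2 libraries.

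Among genes with large rises the difference was 1.67 for Flrt3, 2.05 for Csn2, 1.97 for Atp1b3, 2.15 for Nr3c2, 2.07 for an unnamed locus (NCBI gene 115487367) and 4.10 for Gstt1. It was −1.08 for Tuft1, −3.28 for Apcdd1 and −4.46 for Epb41l4b, which rose more in cDC1s. The Fc receptor group differed by 2.29 for Fcgr2b, 1.59 for Fcgr3, 3.72 for Fcrla and 2.92 for Fcrlb. Other genes that rose in cDC2s differed by 2.25 for Pltp, 1.27 for Bcl2l11, 1.74 for Il1rn, 1.13 for Ccl6, 2.04 for Pvr, 1.65 for Plcb1 and 3.09 for Ace. Of these, Pltp, Il1rn and Plcb1 were under 1 TPM in both WT cDC1 libraries.

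For genes that were at 0 to 0.65 TPM in WT cDC1s, where no fall could be measured, the difference was −2.69 for Hoxc4, −2.48 for Ryr3, −2.10 for Scn3a, −2.16 for Tmod2 and −2.20 for Blk. Other falls gave −1.37 for Gpr4 and −0.79 for Ly9, which were well expressed in WT cDC1s, and −2.01 for Slc2a3, at 1.93 and 3.86 TPM in WT cDC1s with a positive change there. Falls that were smaller in cDC2s gave 2.75 for Apol7c, 1.68 for Apoe and 1.75 for Cd274. The largest remaining differences were 4.05 for Il12b, 3.45 for Ccl22 and 3.27 for Ltbp2, none of which passed the cDC2 test, and −6.36 for Cnpy1, −4.30 for En2 and −3.92 for LOC108168956, which rose in both subsets. En2, a homeobox factor next to Cnpy1 in the genome, was at 0.86, 0.35 and 0.17 TPM in WT and at 2.91, 3.91 and 3.82 TPM in cKO cDC2s.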

How the results depend on the processing

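Calls in cDC2s numbered 838 in the fit reported, 444 with the 6 cDC2 libraries alone, 326 to 938 with 1 library left out, and 611 to 983 under the other scalings, filters and pseudocount. The replicate block left 365 calls in cDC2s and 57 for the difference from cDC1s. It has 3 residual degrees of freedom in place of 6, and whether its numbers pair the libraries is not known. That difference had 260 calls, 59 to 248 with 1 library left out (59 and 66 without a cKO cDC1 library, 84 without cKO cDC2 library 3, 86 without WT cDC1 library 1) and 201 to 340 otherwise. Of 113 named genes called, 67 were called in all 10 fits without 1 library and 63 also under the 9 other alternatives. Signs changed only among genes that were not called: Ppbp had 0.21 with a pseudocount of 0.1 TPM and 0.10 after quantile normalization, Cd74 0.00 after quantile normalization, H2-Aa 0.04 with FPKM, 0.05 with median-of-ratios and 0.06 with quantile scaling, and Ehmt2 0.01 with FPKM and 0.02 with median-of-ratios scaling. With 1 library left out the ranges that crossed 0 were −0.00 to 0.24 for Cdk9, −0.20 to 0.03 for Cd5, −1.29 to 0.27 for Hbb-bs, −1.25 to 0.22 for Hba-a1, −0.45 to 0.27 for Ppbp, −0.18 to 0.44 for Pf4, −0.03 to 0.16 for Xbp1, −0.44 to 2.24 for Ddx3y, −0.04 to 0.24 for Cd74, −0.07 to 0.05 for H2-Aa, −0.15 to 0.03 for B2m, −0.14 to 0.10 for Ehmt2, −0.23 to 0.01 for Srebf2 and −0.28 to 0.05 for Il12b. The cause was not tested. Genes near 0.2 TPM in WT rest on a few reads, so the size of their change is limited by depth, not its direction.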
